A study of Mus musculus with 36 samples.

Results

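Hcar2, Ffar2, Gpr84, Oxgr1 and Sucnr1, which encode receptors for metabolites, and Acod1, which encodes the enzyme that makes itaconate, were followed across every group of an RNA-seq study of BV-2 cells. The 6 genes were taken by symbol from the 19879 genes listed in the deposited tables, and all 6 were found. BV-2 is an immortalised murine microglial line described in the labels as wild-type, so the libraries come from 1 line in culture and not from primary microglia. There were 36 libraries in 12 groups of 3, namely 6 treatments at 4 h and at 24 h. The treatments were either of the vehicles DMSO and EtOH, lipopolysaccharide (LPS) alone at 600 ng/mL, and LPS joined by 1 of 3 drugs. The drugs were cannabidiol (CBD) at 6 µM and, both at 30 µM, monomethyl fumarate (MMF) and its diester dimethyl fumarate (DMF). Vehicle was kept at 0.2%, and serum was lowered just before treatment. The esters were dissolved in DMSO and CBD in EtOH, while the labels do not say which vehicle the cells given LPS alone received. The labels state that each experiment was repeated 3 times but not that the 3 libraries of a group came from separate cultures, so p-values measure the spread between these libraries.

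The 5 receptors are G protein-coupled receptors that let a cell sense metabolites outside it. Hcar2 encodes the receptor for the ketone body β-hydroxybutyrate and for niacin, and MMF is known to activate it. Ffar2 encodes a receptor for short-chain fatty acids such as acetate, Gpr84 a receptor for medium-chain fatty acids, Oxgr1 the receptor for α-ketoglutarate and Sucnr1 the receptor for succinate. Acod1 encodes cis-aconitate decarboxylase, which draws an intermediate from the citric acid cycle and turns it into itaconate, and it is known as a gene that macrophages and microglia switch on when they meet LPS. DMF and MMF are both methyl esters of fumaric acid, DMF with both acid groups esterified and MMF with only one of them.

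Hcar2, Gpr84 and Acod1 had reads in every library and were higher with LPS in all 4 comparisons, and the 250 bases before the annotated start of each are shown for that reason. Coordinates are those of GRCm39, the build of the deposited tables, with gene starts from GENCODE. Capitals mark matches to the motifs searched, on either strand. The motifs were NF-κB, TGANTCA (AP-1), TGACNNNGC (the antioxidant response element), TTGCNNAA (C/EBP), TTCNNNGAA (STAT) and the interferon-stimulated response element.
Hcar2 (chr5:124003563-124003812, minus strand): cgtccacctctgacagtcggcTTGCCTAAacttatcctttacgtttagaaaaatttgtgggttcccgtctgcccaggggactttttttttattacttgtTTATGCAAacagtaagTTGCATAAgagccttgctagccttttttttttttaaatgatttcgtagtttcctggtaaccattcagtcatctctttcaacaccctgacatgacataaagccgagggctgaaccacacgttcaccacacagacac
Gpr84 (chr15:103219040-103219289, minus strand): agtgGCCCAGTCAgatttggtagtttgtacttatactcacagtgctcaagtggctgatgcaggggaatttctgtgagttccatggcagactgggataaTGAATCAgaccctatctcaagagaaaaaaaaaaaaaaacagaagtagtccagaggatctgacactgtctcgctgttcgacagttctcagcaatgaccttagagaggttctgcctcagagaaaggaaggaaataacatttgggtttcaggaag
Acod1 (chr14:103284163-103284412, plus strand): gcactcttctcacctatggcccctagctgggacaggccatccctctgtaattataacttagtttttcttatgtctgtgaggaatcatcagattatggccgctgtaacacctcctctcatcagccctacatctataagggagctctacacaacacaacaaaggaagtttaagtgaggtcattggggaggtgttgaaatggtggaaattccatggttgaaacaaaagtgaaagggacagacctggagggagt

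The Hcar2 window held 3 matches to the C/EBP letters, beginning 229, 151 and 135 bases before the start. The Gpr84 window held an AP-1 match 152 bases and an antioxidant response element match 246 bases before the start, and these did not overlap. In the Acod1 window no exact match to the patterns searched for the 6 motifs was found. Sequences that differ from a pattern by a base were not sought in any window. Among the 21770 protein-coding windows of the same length, the share with at least 1 match was 9.91% for C/EBP, 6.46% for AP-1, 9.31% for the antioxidant response element, 6.94% for NF-κB, 7.82% for STAT and 3.44% for the interferon-stimulated response element. No binding was measured in these samples.

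The genes lie apart in the genome. As the tables give them, Hcar2 (ENSMUSG00000045502) spans chr5:124001633-124003562, Gpr84 (ENSMUSG00000063234) chr15:103216662-103219039, Ffar2 (ENSMUSG00000051314) chr7:30517773-30523200 and Oxgr1 (ENSMUSG00000044819) chr14:120256997-120279847, all on the minus strand. Acod1 (ENSMUSG00000022126) spans chr14:103284413-103294009 and Sucnr1 (ENSMUSG00000027762) chr3:59989290-59994987, both on the plus strand. In GENCODE an antisense long non-coding RNA shares exon sequence with Gpr84 (Gm49482) and another with Acod1 (Gm41235). Neither is listed in the deposited tables, and since no source says whether reads were counted by strand, reads from a gene and from its antisense partner cannot be told apart there.

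Sequencing depth ran from 14110424 to 26676607 counted reads per library. The labelled cell type was checked against 10 markers of microglia and macrophages, among them Ptprc, Csf1r and Spi1, and 10 of 10 reached a normalized count of 10 in at least 3 libraries. Their summed level ran from 25115 to 47147 normalized counts, and Cx3cr1 was the lowest of them in a single library, at 9.36. Markers of other cells were sparse for neurons (0 of 4, with Snap25 and Syt1 at 0), adipocytes (0 of 2), fibroblasts (0 of 2), astrocytes (1 of 4, with Aqp4 at 0) and neutrophils (2 of 3, summed level at most 27.2). Of the oligodendrocyte markers Mbp ran from 658 to 1508 normalized counts in every library, whereas Mog had 2 reads in all. In bulk RNA fewer cells of a type and less RNA per cell cannot be told apart.

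Levels are given as normalized counts, that is reads divided by a size factor set jointly over the 36 libraries, with mean ± SD over the 3 libraries of a group. They compare a gene between groups. Between genes only reads scaled to exon length and library depth (RPKM) are compared, and on that scale Acod1 was the highest of the 6 genes in every group with LPS, at 199.5 ± 41.6 with LPS at 4 h against 49.6 ± 5.03 for Gpr84 and 19.2 ± 5.43 for Hcar2. With the vehicles at 4 h the libraries of Acod1 and Gpr84 overlapped, at 17.3 ± 8.71 and 16.3 ± 1.30 RPKM with EtOH and 15.7 ± 6.72 and 12.4 ± 1.68 RPKM with DMSO. Ffar2 reached 2.34 ± 1.005 on the same scale in its highest group. Exon lengths were those of GENCODE, where Ffar2 reaches position 30536075, while the gene as deposited ends at 30523200. Its RPKM may therefore be too low beside the other genes. A fold change is the log2 difference (log2FC) of limma on the normalized count as deposited plus 1, with its SE, and a gene was called at an adjusted p below 0.05. The levels and the log2FC therefore rest on size factors set over different sets of libraries.

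**Figure D1:**
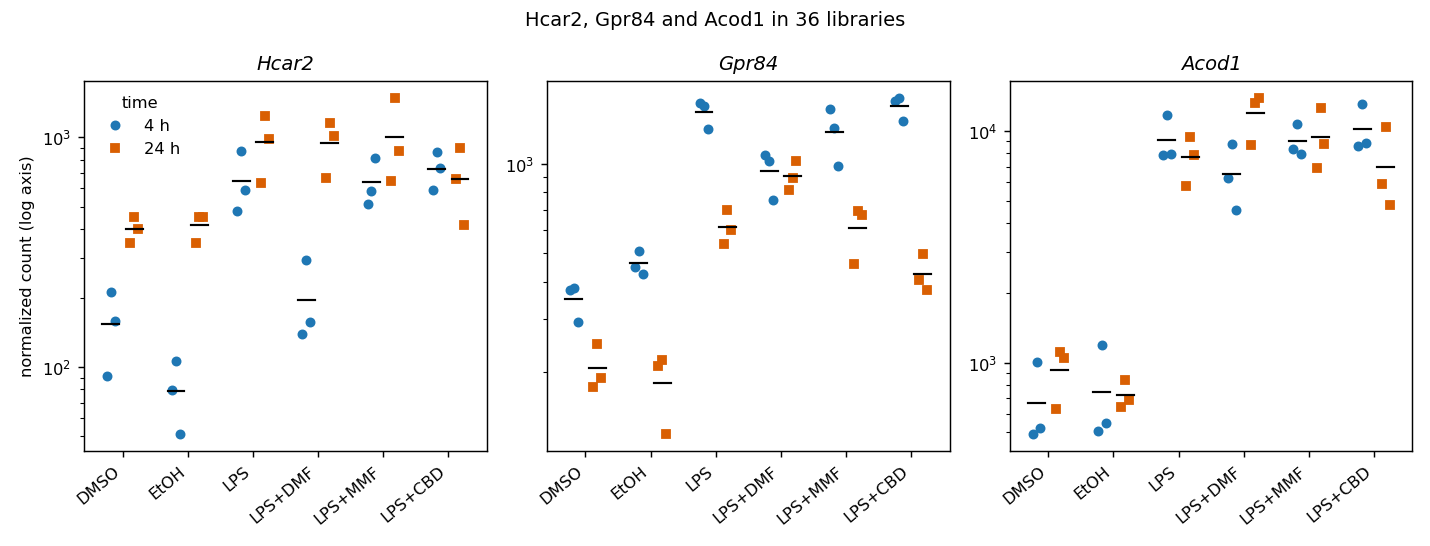
Normalized counts (log axis) of Hcar2, Gpr84 and Acod1 in the 36 libraries, by treatment, with circles for 4 h, squares for 24 h and a bar at the mean of 3 libraries. The 3 libraries with LPS and DMF at 4 h lie between 139.5 and 292 for Hcar2, below the 3 with LPS alone at 479.7 to 871.

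Oxgr1 and Sucnr1 were close to absent from the reads. Oxgr1 had 1 read in the 36 libraries together, in a library with LPS and DMF at 4 h, and was listed in 5 of the 30 tables. Sucnr1 had 26 reads in all and never more than 4 in a library. In the libraries at 0, a count of 0 allows up to 3 reads, and this limit covers counting error only. Neither gene passed the filter of a normalized count of 10 in at least 3 libraries in any comparison, so a change between groups was not detectable at this depth.

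The comparison of LPS with each vehicle asks how the genes respond to activation of the cells. Hcar2, Gpr84 and Acod1 passed the filter and rose with LPS against both vehicles at both times, with the largest log2FC in Acod1 each time. The share of all tested genes called higher was 7.7% against DMSO and 5.69% against EtOH at 4 h, and 12.1% and 10.8% at 24 h. The 3 other genes were not tested in these comparisons.

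In Hcar2, the normalized counts at 4 h were 91.3, 213 and 158 with DMSO, 79.7, 107 and 50.9 with EtOH, and 479.7, 871 and 592 with LPS. Every LPS library lay above every vehicle library. The log2FC was 2.10 ± 0.31 (SE) against DMSO (adjusted p = 0.00355) and 3.04 ± 0.29 against EtOH (adjusted p = 0.000627). At 24 h the vehicle libraries were higher, at 346, 449 and 399 with DMSO and 348, 451 and 451 with EtOH, and those with LPS were at 632, 1239.7 and 985. The groups again did not overlap. The log2FC was then 1.22 ± 0.20 against DMSO (adjusted p = 0.00131) and 1.16 ± 0.20 against EtOH (adjusted p = 0.00187).

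The smaller log2FC of Hcar2 at 24 h was tested as the difference between the 2 times. Against EtOH the effect of LPS was lower by 1.89 ± 0.39 on the log2 scale at 24 h than at 4 h, the log2 difference being -1.89 (adjusted p = 0.0092). Hcar2 was the only member called for that difference, where 4.57% of all genes were called in the same direction. Against DMSO the difference was -0.89 ± 0.41 and was not called (adjusted p = 0.191, with 9.46% of all genes called), and no member was called there.

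Gpr84 stood at 377, 382 and 293 normalized counts with DMSO, 450.2, 509 and 427 with EtOH and 1596, 1559.8 and 1302 with LPS at 4 h. The log2FC was 2.08 ± 0.12 against DMSO (adjusted p = 3.63e-05) and 1.68 ± 0.10 against EtOH (adjusted p = 7e-05). After 24 h the same gene stood at 178, 248 and 191 with DMSO, 209, 219 and 123 with EtOH and 536, 701 and 600.0 with LPS. Each group was lower than at 4 h, and the LPS libraries stayed above those of both vehicles. There the log2FC was 1.59 ± 0.14 against DMSO (adjusted p = 2.57e-05) and 1.78 ± 0.20 against EtOH (adjusted p = 7.88e-05). Its LPS effect was not called as different between the times, at -0.51 ± 0.20 against DMSO (adjusted p = 0.132) and 0.08 ± 0.25 against EtOH (adjusted p = 0.881).

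Acod1, the itaconate enzyme, stood at 4 h at 489.5, 1006 and 521 with DMSO, 506, 1196 and 548 with EtOH and 7834, 11644 and 7903 with LPS. Every LPS library lay far above those of the vehicles, with a log2FC of 3.81 ± 0.27 over DMSO (adjusted p = 7.73e-05) and 3.69 ± 0.31 over EtOH (adjusted p = 0.000336), the latter a 12.9-fold rise. After 24 h the values were 633, 1112 and 1047 with DMSO, 640.0, 842 and 686 with EtOH, and 5751, 9432 and 7884 with LPS. The rise was then 8.42-fold over DMSO (log2FC 3.07 ± 0.21, adjusted p = 4.35e-06) and 10.6-fold over EtOH (log2FC 3.40 ± 0.16, adjusted p = 1.55e-07). The calls of the 3 genes in the 4 comparisons held in every alternative that was run, those leaving out a library included.

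**Figure D2:**
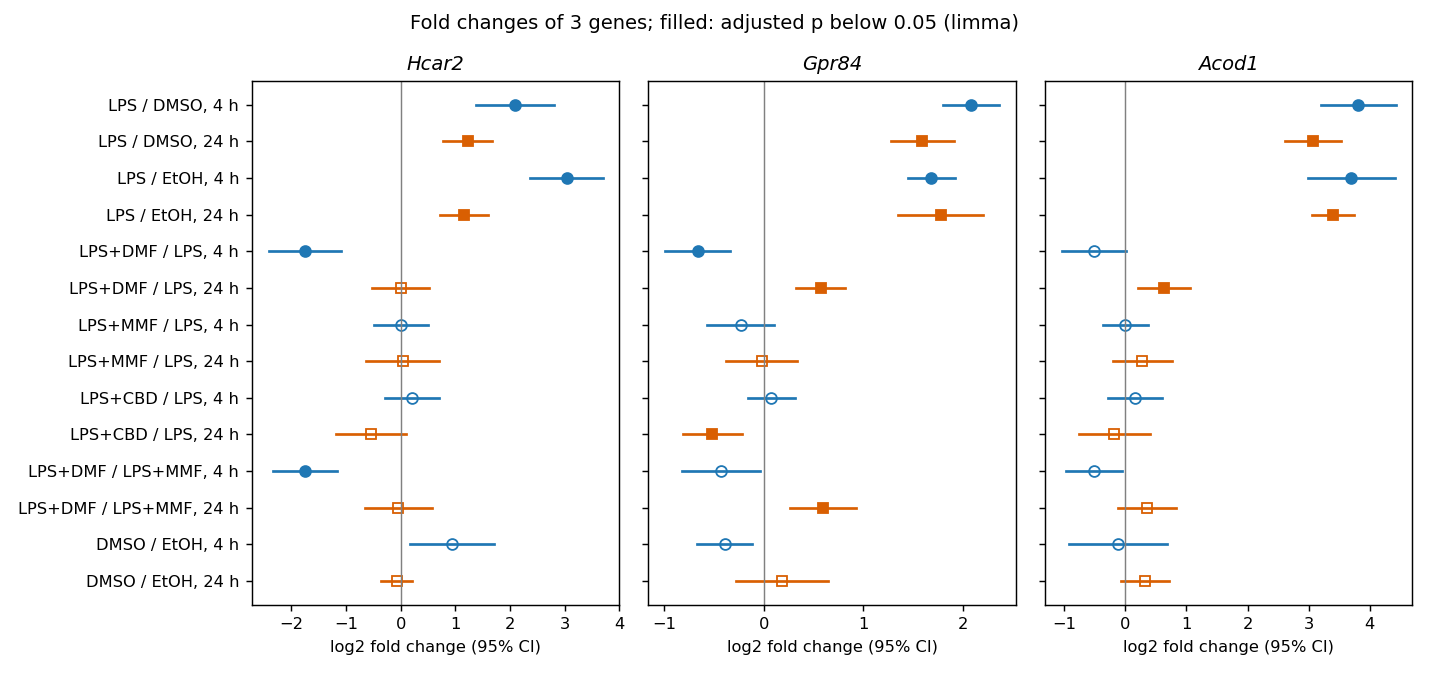
Log2 fold change with its 95% confidence interval for Hcar2, Gpr84 and Acod1 in the comparisons within a time point, with circles for 4 h and squares for 24 h, and filled symbols where the adjusted p was below 0.05. The symbols for LPS against the vehicles are all filled and to the right of 0, and those of Hcar2 for LPS with DMF lie at -1.75 at 4 h and at 0.00 at 24 h.

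DMF added to LPS asks whether the drug changes the activated state. At 4 h Hcar2 and Gpr84 fell against LPS alone and Acod1 was not called, where 6.51% of all genes were called lower. At 24 h Acod1 and Gpr84 rose and Hcar2 was not called, where 11.9% of all genes were called higher. The remaining genes did not pass the filter.

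For Hcar2 at 4 h the libraries with LPS and DMF were at 139.5, 292 and 158 normalized counts against 479.7, 871 and 592 with LPS alone. The groups did not overlap, and the level with DMF was 3.37-fold lower (log2FC -1.75 ± 0.29, adjusted p = 0.00555). The mean with LPS and DMF, 197 ± 83.5, stood beside 154 ± 60.9 with DMSO alone, and those groups overlapped, although that pair was not tested here. At 24 h the values were 664, 1152 and 1012 with DMF and 632, 1239.7 and 985 with LPS alone. The groups overlapped throughout, with a log2FC of 0.00 ± 0.24 and an interval from -0.53 to 0.53 (adjusted p = 0.999). The difference between the times was itself called, at 1.75 ± 0.42 on the log2 scale (adjusted p = 0.012).

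The libraries with LPS and DMF had 1066, 1016 and 754 normalized counts of Gpr84 at 4 h, all under the 1302 to 1596 seen with LPS alone. The log2FC was -0.67 ± 0.14 (adjusted p = 0.0182). The order was the opposite at 24 h, with 815, 895 and 1016 for DMF, all above the 536 to 701 of LPS alone (log2FC 0.57 ± 0.11, adjusted p = 0.00541). The change of direction was called as a difference of 1.23 ± 0.20 (adjusted p = 0.000881). The fall at 4 h was no longer called without replicate 1 of LPS (adjusted p = 0.0654) or without replicate 3 of DMF (adjusted p = 0.0546).

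Acod1 with LPS and DMF stood at 6241, 8730.2 and 4559.6 at 4 h beside 7834, 11644 and 7903 with LPS alone. The groups overlapped, and the log2FC of -0.52 ± 0.23 was not called (adjusted p = 0.214). With a block on the replicate number, by which these libraries were taken to pair, it was called (adjusted p = 0.0148). The block called 1714 of 11371 genes there. Each numbered library with DMF was below the LPS library of the same number. Acod1 was also called without replicate 2 of DMF (adjusted p = 0.0378). At 24 h the values were 8706, 13231 and 13871 against 5751, 9432 and 7884, and the log2FC was 0.63 ± 0.19 (adjusted p = 0.035). The difference between the times was 1.15 ± 0.34 (adjusted p = 0.0335), so that 3 members were called for a higher effect of DMF at 24 h than at 4 h, where 8.45% of all genes were. The 24 h call was lost without replicate 1 or 3 of LPS (adjusted p = 0.096 and 0.0875) and without replicate 2 or 3 of DMF (adjusted p = 0.108 and 0.143), and the difference between the times was lost in 7 of the 12 fits that left out a library (adjusted p from 0.0573 to 0.0923), namely LPS replicate 2 at 4 h or 1 or 3 at 24 h and DMF replicate 1 or 3 at 4 h or 2 or 3 at 24 h.

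MMF, at the same dose and times as DMF, was compared with LPS alone in the same way. No member was called at either time, where limma called 14 genes (0.122%) at 4 h and 0 (0%) at 24 h, with 843 and 440 genes at an unadjusted p under 0.05 and 52 and 17 genes called by DESeq2. Hcar2 with LPS and MMF was at 515, 587 and 814 at 4 h and at 646, 1487 and 872 at 24 h, within or overlapping the range of LPS alone. The log2FC of Hcar2 was 0.00 ± 0.22 at 4 h, with an interval from -0.49 to 0.49, and 0.04 ± 0.30 at 24 h, with an interval from -0.62 to 0.70. Gpr84 was at 1527, 1319.5 and 983 at 4 h (log2FC -0.23 ± 0.15, adjusted p = 0.786) and at 461, 694 and 671 at 24 h (log2FC -0.02 ± 0.16, adjusted p = 1). Acod1 was at 8355, 10684 and 7977 at 4 h, with a log2FC of 0.00 ± 0.16 (adjusted p = 1), and at 6885, 12534 and 8801 at 24 h, with a log2FC of 0.28 ± 0.22 (adjusted p = 1). In the fit with the replicate block, for which the 24 h libraries pair, Acod1 was called higher with MMF at 24 h (adjusted p = 0.00298). No member was called for a difference of the MMF effect between the times, where limma and DESeq2 each called 0 genes (0%) and 385 had an unadjusted p under 0.05 in limma.

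The esters, which differ by a methyl group on the second acid function, were then compared directly at 30 µM, as 2 pairs, 1 at each time, with p-values adjusted over all genes of each. At 4 h Hcar2 was 3.37-fold lower with DMF than with MMF (log2FC -1.75 ± 0.26, adjusted p = 0.00417), and the 3 libraries with DMF, at 139.5 to 292, lay below the 3 with MMF, at 515 to 814. It was the only member called, where 4.97% of all genes were called lower. Gpr84 differed by -0.43 ± 0.17, with an interval from -0.82 to -0.04 (adjusted p = 0.163), and Acod1 by -0.51 ± 0.21, with an interval from -0.97 to -0.05 (adjusted p = 0.161). At 24 h Gpr84 was the only member called, 1.51-fold higher with DMF (log2FC 0.59 ± 0.15, adjusted p = 0.0217), where 10.1% of all genes were called higher. Hcar2 then differed by -0.04 ± 0.28, with an interval from -0.66 to 0.58, and Acod1 by 0.36 ± 0.22, with an interval from -0.13 to 0.84 (adjusted p = 0.262). The block, which pairs the 24 h libraries, called Acod1 as well (adjusted p = 0.0028). Leaving out DMF replicate 3 at 24 h ended the call of Gpr84 (adjusted p = 0.101), while Acod1 was called without DMF replicate 2 at 4 h (adjusted p = 0.0057) and without MMF replicate 2 at 24 h (adjusted p = 0.0353).

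CBD, given at 6 µM and not at the dose of the esters, was compared with LPS alone. At 4 h no member was called, where 1 gene (0.00875%) was called by limma, 363 genes had an unadjusted p under 0.05 and DESeq2 called 3. The values at 4 h were 593, 864 and 733 for Hcar2 (log2FC 0.21 ± 0.21), 1618, 1660.4 and 1385 for Gpr84 (log2FC 0.07 ± 0.10) and 8574, 13045 and 8817 for Acod1 (log2FC 0.16 ± 0.20), all with an adjusted p of 0.994. At 24 h Ffar2 was higher and Gpr84 lower, in a comparison where 23.9% of all genes were called higher and 24.8% lower.

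Ffar2 is the gene with the fewest reads among those that were tested. With LPS alone at 24 h it had 0, 1 and 0 reads, and with LPS and CBD 89, 132 and 241 reads, which are 93.8, 123 and 205 normalized counts. It passed the filter only through the CBD libraries, so a difference was bound to appear in the fit (log2FC 6.77 ± 0.43, adjusted p = 6.1e-06), and that fold depends on the added count of 1. As a ratio of normalized counts over the groups, CBD to LPS was 451, with a 95% counting interval from 80.6 to 17865 on a single read in the LPS group. Without any one of the 3 CBD libraries at 24 h Ffar2 no longer passed the filter and was not tested. The other groups at 24 h held 3, 3 and 4 reads with DMSO, 8, 5 and 5 with EtOH, 3, 9 and 12 with LPS and DMF, and 1, 0 and 2 with LPS and MMF. CBD with LPS was thus 31.7 times EtOH, with a counting interval from 19.8 to 53.9, and 19.1 times DMF with LPS, with an interval from 12.7 to 30.1.

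At 4 h Ffar2 had at most 5 reads in any library and 0 in each library with LPS and DMF, and with LPS and CBD it had 2, 3 and 1. From 4 h to 24 h with CBD the ratio was 68.7, with a counting interval from 31.3 to 188, and the effect of CBD differed between the times by 5.69 ± 0.81 on the log2 scale (adjusted p = 0.000178), again through the same 3 libraries, where 15.4% of all genes were called higher. At 24 h the reads with DMF were more than with LPS alone, at a ratio of 23.6 with an interval from 3.86 to 972, and against DMSO the ratio was 1.98 with an interval from 0.91 to 4.63. The vehicle libraries at 24 h each held 3 to 8 reads, and those with LPS alone 0 to 1. These intervals cover counting error only. With no filter on low values limma called Ffar2 at 24 h lower with LPS than with DMSO (log2FC -1.86, adjusted p = 0.0178) or EtOH (log2FC -2.26, adjusted p = 0.00944), and higher with DMF and LPS than with LPS alone (log2FC 2.63, adjusted p = 0.00535), on at most 12 reads in a library.

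**Figure D3:**
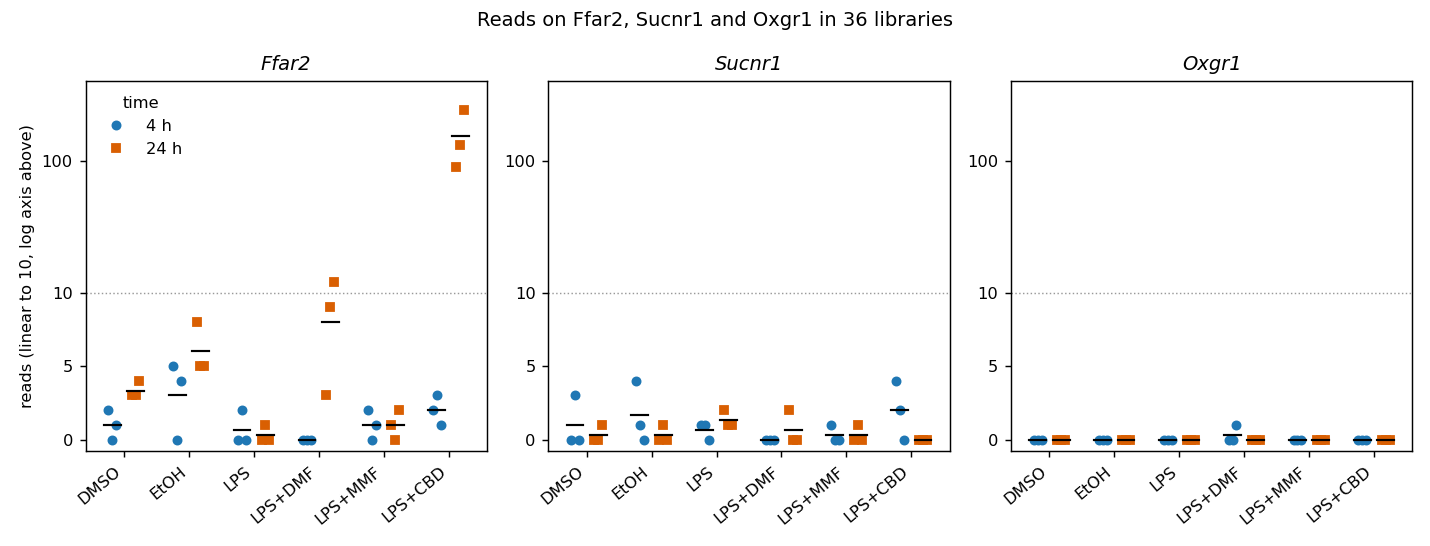
Reads of Ffar2, Sucnr1 and Oxgr1 in the 36 libraries (linear to 10 reads, log above), by treatment, with circles for 4 h, squares for 24 h and a bar at the mean of 3 libraries. The 3 libraries with LPS and CBD at 24 h, at 89, 132 and 241 reads of Ffar2, stand above the others, none of which passes 12.

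At 24 h Gpr84 had 407, 496 and 377 normalized counts with CBD and 536, 701 and 600.0 with LPS alone. The groups did not overlap, and the log2FC was -0.52 ± 0.13 (adjusted p = 0.00945). The effect of CBD on Gpr84 was lower at 24 h than at 4 h by 0.59 ± 0.18 on the log2 scale, the log2 difference being -0.59 (adjusted p = 0.0223), where 16.7% of all genes were called lower. No other member was called lower for that difference in this fit, while with the replicate block Hcar2 was too (log2 difference -0.75, adjusted p = 0.0276). The block called 4755 of 11959 genes for that difference. By number, the CBD libraries were taken to pair with those of LPS at both times. Across times only 2 of 3 pairs of CBD libraries correlated above the limit used. The Gpr84 call for the difference between the times came from the fit without the block. It was lost without CBD replicate 2 at 4 h (adjusted p = 0.0531) or replicate 3 at 24 h (adjusted p = 0.0589). The same call was lost without LPS replicate 3 at 4 h (adjusted p = 0.063) or replicate 2 at 24 h (adjusted p = 0.0512).

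Hcar2 with CBD at 24 h stood at 662, 897 and 415 beside 632, 1239.7 and 985 with LPS alone, and the groups overlapped. Its log2FC was -0.54 ± 0.28 and was not called (adjusted p = 0.141). These libraries were taken to pair by replicate number. In the blocked fit, which called 6616 of 11671 genes, Hcar2 was called (adjusted p = 0.0208). It was also called without LPS replicate 1 (adjusted p = 0.0428) or CBD replicate 2 (adjusted p = 0.0261). Acod1 was at 5918, 10334 and 4778, overlapping LPS alone, with a log2FC of -0.18 ± 0.26 and an interval from -0.76 to 0.41 (adjusted p = 0.593). Acod1 was called lower only where CBD replicate 2 was left out (adjusted p = 0.0395).

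The vehicles were compared with each other as a background for the values above. No member was called at 4 h, where limma called 0 genes (0%), 1051 genes had an unadjusted p under 0.05 and DESeq2 called 89, nor at 24 h, where 1 gene (0.00854%) was called. At 4 h the log2FC of DMSO against EtOH was 0.94 ± 0.34 for Hcar2 (adjusted p = 0.444), and the libraries overlapped at 91.3 to 213 and 50.9 to 107. For Gpr84 it was -0.40 ± 0.12 (adjusted p = 0.411), with 293 to 382 against 427 to 509 and no overlap. The vehicle libraries pair by replicate number as well, and with the block both were called at 4 h, at an adjusted p of 0.0152 for Hcar2 and 0.00756 for Gpr84. At 24 h the log2FC was -0.07 ± 0.13 for Hcar2, 0.18 ± 0.21 for Gpr84 and 0.33 ± 0.18 for Acod1, each with an adjusted p of 0.997.

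The levels at 24 h were also compared with those at 4 h within each treatment, in tests that share their libraries with those above. Hcar2 rose with DMSO (log2FC 1.41 ± 0.25, adjusted p = 0.000783), with EtOH (log2FC 2.42 ± 0.23, adjusted p = 2.26e-05) and with LPS and DMF (log2FC 2.29 ± 0.27, adjusted p = 5.73e-05). Those are the 3 treatments whose 4 h libraries were the lowest, at 50.9 to 292. With LPS alone its log2FC was 0.54 ± 0.25 (adjusted p = 0.0993), with MMF 0.58 ± 0.25 (adjusted p = 0.0696) and with CBD -0.21 ± 0.24 (adjusted p = 0.462). The block, which pairs the libraries of the first and second of these, called both (adjusted p = 0.00122 and 0.0172). It called 6010 of 11510 genes with LPS alone and 6466 of 11545 with MMF. With LPS alone Hcar2 was also called without replicate 2 at 4 h (adjusted p = 0.0147) or replicate 1 at 24 h (adjusted p = 0.0179), and with MMF without replicate 1 at 24 h (adjusted p = 0.0079).

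Gpr84 fell over time with DMSO (log2FC -0.79 ± 0.15, adjusted p = 0.00124), EtOH (log2FC -1.39 ± 0.20, adjusted p = 0.000185), LPS (log2FC -1.29 ± 0.12, adjusted p = 7.83e-05), LPS with MMF (log2FC -1.07 ± 0.17, adjusted p = 0.000448) and LPS with CBD (log2FC -1.88 ± 0.11, adjusted p = 1.47e-06). With LPS and DMF the libraries overlapped between the times, at 754 to 1066 and 815 to 1016, and the log2FC was -0.05 ± 0.14 (adjusted p = 0.761). Acod1 was called over time only with LPS and DMF, where it rose (log2FC 0.89 ± 0.23, adjusted p = 0.00637). Its log2FC with LPS alone was -0.26 ± 0.19 (adjusted p = 0.291) and with CBD -0.60 ± 0.25 (adjusted p = 0.0644). It was further called with DMSO without replicate 5 at 4 h (adjusted p = 0.00232) or replicate 4 at 24 h (adjusted p = 0.0344), with EtOH without replicate 5 at 4 h (adjusted p = 0.00867) and with CBD without replicate 2 at 24 h (adjusted p = 0.000864). The share of all genes called over time was 51.6% in the DMSO group, 58.6% in the EtOH group and, among those given LPS, 48.9% for LPS alone, 58.8% for DMF, 49.5% for MMF and 63.2% for CBD, so that a call over time is common among all genes.

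**Figure D4:**
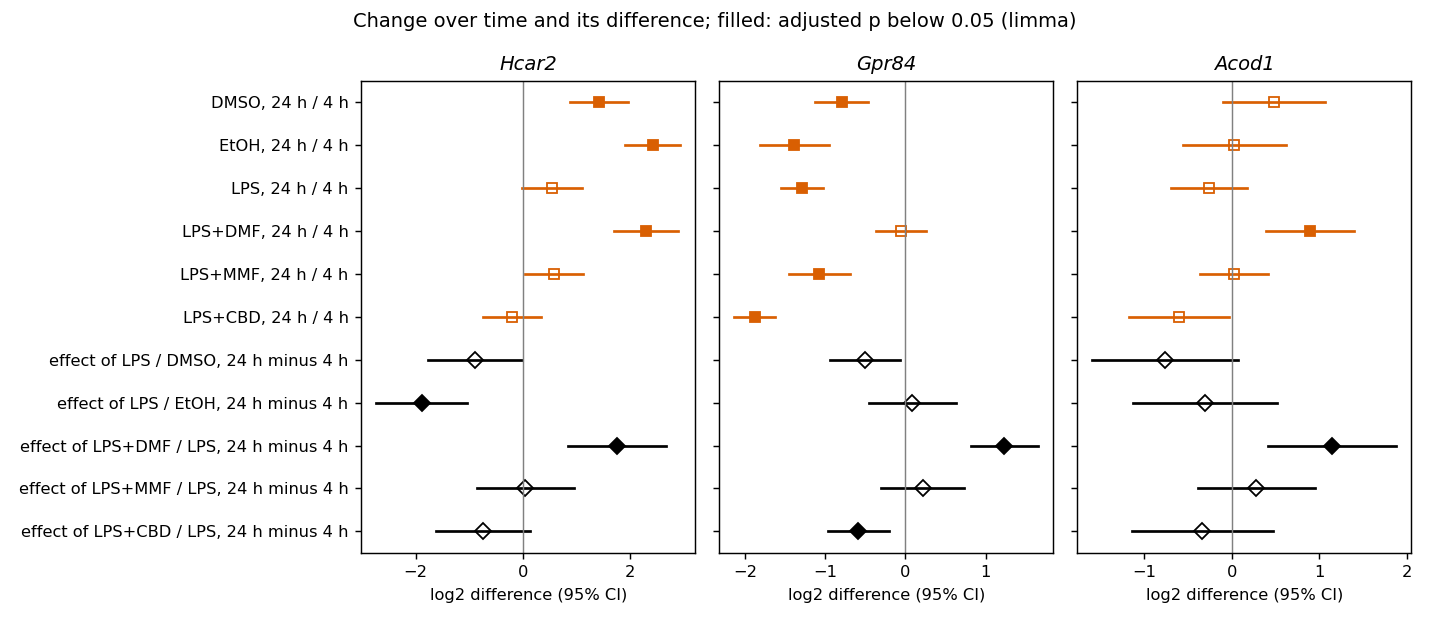
Log2 difference with its 95% confidence interval for Hcar2, Gpr84 and Acod1, for 24 h over 4 h within each treatment (squares) and for the effect of a treatment at 24 h minus that at 4 h (diamonds), filled where the adjusted p was below 0.05. The diamonds for LPS with DMF against LPS are filled for all 3 genes, at 1.75, 1.23 and 1.15.

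Ordered by mean, Hcar2 was highest with LPS and MMF at 24 h (1002 ± 435) and lowest with EtOH at 4 h (79.1 ± 27.8). In that order the libraries of neighbouring groups were apart in 2 places, between LPS with MMF at 4 h (639 ± 156) and EtOH at 24 h (417 ± 59.5) and between DMSO at 24 h (398 ± 51.9) and LPS with DMF at 4 h. Gpr84 ran from 1554 ± 148 with LPS and CBD at 4 h to 184 ± 52.6 with EtOH at 24 h. Its neighbouring groups were apart between LPS with DMF (909 ± 101) and LPS alone (612 ± 83.0) at 24 h and between DMSO at 4 h (351 ± 49.7) and DMSO at 24 h (206 ± 36.9). Acod1 ran from 11936 ± 2816 with LPS and DMF at 24 h to 672 ± 289.7 with DMSO at 4 h. Its order had 1 gap, between the group with LPS and DMF at 4 h (6510.2 ± 2098), the lowest of the 8 groups with LPS, and DMSO at 24 h (930.5 ± 259), the highest vehicle group.

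Replicate numbers moved with the levels. Replicate 2 was the highest of the 3 libraries in 7 of the 8 groups with LPS for Hcar2, and in 7 of the 8 for Acod1. The exceptions differed, being LPS with MMF at 4 h for Hcar2 and LPS with DMF at 24 h for Acod1. In 4 of the 4 vehicle groups replicate 5 was the highest for Hcar2, Gpr84 and Acod1. For Gpr84 replicate 2 was the highest in 4 of the 8 groups with LPS. What the numbers stand for beyond repeated experiments is not given in the labels.

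Over the 12 group means of log2(normalized count + 1), Pearson's r between members was 0.735 for Hcar2 and Acod1, 0.805 for Gpr84 and Acod1 and 0.325 for Hcar2 and Gpr84. The points share their libraries and size factors, and r is given as a description. Of 10558 other genes, those most like Hcar2 were Nos2 (r = 0.995), which encodes inducible nitric oxide synthase, Ppp2r3a (0.987), a regulatory subunit of a protein phosphatase, and Lcp2 (0.967), an adaptor protein of leukocytes. Most like Gpr84 were Cd14 (0.994), which encodes a co-receptor for LPS, Resf1 (0.974) and Zfp281 (0.961). Most like Acod1 were Ehd1 (0.996), Il36a (0.989) and Il1a (0.989), of which the last 2 encode cytokines of the interleukin-1 family. Most like Ffar2 were Grn (0.959), Cnppd1 (0.956) and Pnrc2 (0.955), where r rests largely on the group with CBD at 24 h.

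A list of 13 other receptors for metabolites was followed as well. Of these, 6, among them Gpr35, Gpr132, Gpr183, Gpr65 and Adora2b, had a normalized count of at least 10 in each of the 36 libraries. Hcar1, a lactate receptor related to Hcar2, had 12 reads in all, and Ffar3, the other receptor for short-chain fatty acids, had 34. Against DMSO at 4 h, 1 of the 6 tested receptors rose with LPS, Adora2b, an adenosine receptor (log2FC 1.72 ± 0.21, adjusted p = 0.00132), and 2 fell, among them Gpr183, an oxysterol receptor (log2FC -0.46 ± 0.08, adjusted p = 0.00898). Of all genes 7.7% were called higher and 6.38% lower there. The median log2FC of the list was -0.23 against DMSO and 0.08 against EtOH, where 1 of 6 rose and 1 fell (5.69% and 4.48% of all genes). Its sign thus differed by comparison. Between DMSO and EtOH at 4 h 0 of 6 were called (median -0.055), where 0% of all genes were. With DMF at 4 h 3 of 6 fell and 0 rose (median -0.74, beside 0.01 over all genes, of which 6.51% fell), among them Gpr183 (log2FC -1.82 ± 0.17, adjusted p = 0.000337) and Adora2b (log2FC -1.16 ± 0.32, adjusted p = 0.0482). With DMF at 24 h 2 of 6 rose, Gpr35 (log2FC 1.38 ± 0.16, adjusted p = 0.000434) and Adora2b (log2FC 0.76 ± 0.12, adjusted p = 0.00211), and Gpr183 fell (log2FC -0.56 ± 0.11, adjusted p = 0.00595), where 11.9% of all genes rose and 13.2% fell. With MMF 0 of 6 were called at either time, where 0.122% of all genes were at 4 h and 0% at 24 h. With CBD at 24 h 4 of 6 fell, Gpr183 by most (log2FC -1.69 ± 0.17, adjusted p = 6.38e-05), and Gpr35 rose (log2FC 0.43 ± 0.16, adjusted p = 0.0485), where 24.8% of all genes fell and 23.9% rose.

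Downstream of the receptors, 24 genes of G protein signalling were listed. With LPS at 24 h 5 of 21 tested genes rose and 3 fell against DMSO, where 12.1% and 10.6% of all genes did, and 6 of 22 rose and 3 fell against EtOH, where 10.8% and 9.72% did. Against DMSO the regulators of G protein signalling Rgs1 (log2FC -1.74 ± 0.18, adjusted p = 6.07e-05) and Rgs2 (log2FC -1.14 ± 0.11, adjusted p = 4.9e-05) fell by most. With CBD at 24 h 5 of 21 rose and 10 fell (median -0.32, beside 0.00 over all genes), where 23.9% of all genes rose and 24.8% fell, so that the rises are near the share among all genes. There Rgs1 rose (log2FC 3.01 ± 0.27, adjusted p = 3.38e-05), as did Rgs2 (log2FC 1.11 ± 0.16, adjusted p = 0.000415), while Arrb2, a β-arrestin, fell (log2FC -0.88 ± 0.13, adjusted p = 0.000447), as did the receptor kinase gene Grk6 (log2FC -0.81 ± 0.09, adjusted p = 0.000118). With DMF 4 of 20 fell at 4 h, Rgs2 by most (log2FC -1.38 ± 0.24, adjusted p = 0.00625), where 6.51% of all genes fell, and 3 of 21 rose and 2 fell at 24 h, where 11.9% and 13.2% did. With MMF 0 were called, where 0.122% of all genes were at 4 h and 0% at 24 h.

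Around Acod1, 24 genes of the citric acid cycle and of the handling of itaconate and other dicarboxylates were listed. With LPS at 4 h 0 of 23 were called against either vehicle (median 0.00 and 0.02). Of all genes 7.7% rose and 6.38% fell there against DMSO, and 5.69% and 4.48% did against EtOH. At 24 h 4 of 24 rose and 2 fell against DMSO, where 12.1% and 10.6% of all genes did, and 3 of 23 rose and 1 fell against EtOH, where 10.8% and 9.72% did. Against DMSO there were rises in Idh1, cytosolic isocitrate dehydrogenase (log2FC 0.65 ± 0.12, adjusted p = 0.00313), and Ogdh, a subunit of α-ketoglutarate dehydrogenase (log2FC 0.36 ± 0.07, adjusted p = 0.00478), and a fall in Clybl, whose enzyme acts in the breakdown of itaconate (log2FC -0.40 ± 0.11, adjusted p = 0.0251). With DMF 0 of 23 were called at 4 h, where 1257 of all 11371 genes tested were. At 24 h 13 fell and 0 rose (median -0.24, beside -0.01 over all genes, of which 13.2% fell and 11.9% rose). The falls were led by Acly, ATP citrate lyase (log2FC -0.86 ± 0.08, adjusted p = 9.64e-05), and Idh2 (log2FC -0.68 ± 0.08, adjusted p = 0.000446). With CBD at 24 h 12 of 23 fell and 0 rose (median -0.26, beside 0.00 over all genes, of which 24.8% fell), led by Acly (log2FC -1.14 ± 0.11, adjusted p = 6.22e-05) and Slc25a10, the mitochondrial dicarboxylate carrier (log2FC -1.04 ± 0.19, adjusted p = 0.00176). With MMF 0 of 23 were called at either time, where 0.122% of all genes were at 4 h and 0% at 24 h.

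Of 10 transcription factors and partners linked to Acod1 or itaconate, 6 rose and 0 fell with LPS against DMSO at 4 h (median 0.77), where 7.7% of all genes rose, and 5 rose and 0 fell against EtOH (median 0.63), where 5.69% did. The changes against DMSO were led by Nfkbiz, an inhibitor-like partner of NF-κB (log2FC 2.85 ± 0.14, adjusted p = 1.45e-05), and Atf3 (log2FC 1.32 ± 0.22, adjusted p = 0.00616). With DMF at 4 h 4 of 10 fell and 0 rose (median -0.37), where 6.51% of all genes fell, among them Irf8, a factor of the interferon response (log2FC -0.92 ± 0.12, adjusted p = 0.00168). With DMF at 24 h 2 rose, Rela (log2FC 0.41 ± 0.09, adjusted p = 0.00959) and Nfe2l2, which encodes Nrf2 (log2FC 0.27 ± 0.08, adjusted p = 0.0409), and Irf8 fell (log2FC -0.27 ± 0.07, adjusted p = 0.0207), where 11.9% of all genes rose and 13.2% fell. With CBD at 24 h 5 rose and 0 fell (median 0.29), where 23.9% of all genes rose, led by Atf3 (log2FC 1.81 ± 0.10, adjusted p = 4.1e-06) and Cebpb (log2FC 0.75 ± 0.08, adjusted p = 0.000105). With MMF 0 of 10 were called, where 0.122% of all genes were at 4 h and 0% at 24 h. The medians over all genes in these comparisons were within 0.01 of 0.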

How the data were processed

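RNA of 36 BV-2 libraries had been poly(A)-selected and sequenced as paired-end reads. Per the submitters' processing notes and the study's methods, the authors used FastQC 0.12.1, Cutadapt 4.4, Trimmomatic 0.39, HISAT2 2.2.1, GRCm39, HTSeq 2.0.3 and DESeq2 1.40.2. The authors deposited 30 tables, 1 per pair of groups, whose library columns hold a signal, namely read counts divided by DESeq2 size factors (0.750 to 1.53). The authors' own fold changes and p-values in the same tables were not used. Dividing by the unit step gave whole reads for 100.0% of 3127002 values (within 0.01 read), and 0 of 2446332 values differed between tables. Replicate libraries differed by more than sampling noise in 36 of 36 pairs (chi-square per degree of freedom 4.83 to 31.0).

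Each of the 20 pairs of groups was tested with limma 3.58.1 (trend, two-sided) in R 4.3.3 on log2(normalized count as deposited + 1) over its 6 libraries, for genes at 10 or more in at least 3 libraries, with Benjamini-Hochberg adjustment over all genes tested. The 5 differences of an effect between times were interaction terms over 12 libraries, under joint median-of-ratios factors. Alternatives were pseudocounts of 0.5 and 5, no filter, TMM factors, edgeR 4.0.16 and DESeq2 1.42.0 on the recovered reads, all 36 libraries in 1 fit, the replicate block, a log2 limit of 1 and leaving out each library. The functions were tested on simulated data. Replicate numbers were taken to pair libraries where all 3 correlations of same-numbered deviations were over 0.1, which held in 10 of 16 comparisons that share numbers. In some of these a differently numbered pair correlated above the lowest same-numbered pair. These values were 0.309 and 0.169 for DMF against LPS at 4 h and 0.173 and 0.126 for CBD against LPS at 24 h. At 24 h they were also 0.248 and 0.202 for DMF against MMF and 0.187 and 0.184 for DMSO against EtOH. For the time change with MMF they were 0.211 and 0.141. Ratios of Ffar2 reads have exact conditional binomial intervals (95%). The sequences and motif shares were read from the GRCm39 genome with the GENCODE annotation.

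The 6 genes and the lists were chosen with earlier results of these data known. Named genes were the 6 members, the 3 genes with the highest r to a member (mean of at least 50 in a group, for members at 20 or more) and, of each list, at most the 2 called genes with the largest rise and fall. Some genes of the lists are not reported here.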

Additional observations from a re-analysis of the deposited data

Results flagged for a closer look

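For 3 genes, differences between 4 h and 24 h passed the test of the difference itself, the limma interaction term. The effect of LPS against EtOH on Hcar2 differed by -1.89 on the log2 scale (24 h minus 4 h), with group means of 79.1 for EtOH and 647 for LPS at 4 h and 417 and 952 at 24 h. Against DMSO the limma term was -0.89 and was not called (adjusted p = 0.191). The effect of DMF with LPS against LPS differed by 1.15 for Acod1, 1.75 for Hcar2 and 1.23 for Gpr84. For Acod1 the call was lost in 9 of 19 alternative fits. For Gpr84 the 3 libraries with DMF were below those of LPS alone at 4 h and above them at 24 h. The effect of CBD with LPS against LPS differed by -0.59 for Gpr84, a call lost in 4 of 19 alternative fits. For Ffar2 the term was 5.69, given as a value with no weight as a test, since the gene passed the filter only through the 3 libraries with CBD at 24 h (89, 132 and 241 reads).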

How the results depend on the processing

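Of 36 called results for members, 490 of 512 alternative values kept the call and its direction, 22 lost the call and 0 changed direction. That tally leaves out 9 fits without a CBD library at 24 h, in which Ffar2 was not tested. It counts 11, 11 and 16 alternatives for the called results of Ffar2, all of which kept the call. These carry no weight, since the gene passed the filter only through the libraries with CBD at 24 h. Of 42 results not called, 26 of 632 alternative values were called. None of the 36 group levels moved by more than 1 SD under TMM factors. The counts of members called changed as follows. With a log2 limit of 1 as well, 1 member was called for DMF against LPS at 4 h, 0 at 24 h, 1 for CBD against LPS at 24 h, 0 for DMF against MMF at 24 h, 1 for the time change with DMSO, 1 for that with DMF and 1 for the difference of the CBD effect between times. For CBD against LPS at 24 h and for that difference the member kept was Ffar2, so those counts carry no weight. With the replicate block, 3 members were called for DMF against LPS at 4 h, 3 for CBD against LPS at 24 h, 3 for the time changes with DMSO and CBD, 3 for the difference of the CBD effect between times, 3 for DMF against MMF at 4 h, 2 at 24 h, 2 for DMSO against EtOH at 4 h, 1 for MMF against LPS at 24 h, 2 for the time change with LPS and 2 for that with MMF. Of all genes tested the block called 1714 of 11371 for DMF and 6616 of 11671 for CBD in those comparisons with LPS. For the time changes it called 6483 of 11482 with DMSO and 7663 of 11667 with CBD. Those with LPS and MMF had 6010 of 11510 and 6466 of 11545 called. For the difference of the CBD effect it called 4755 of 11959, and totals for the other comparisons are given below. The counts with CBD include Ffar2, which carries no weight. DESeq2 called 1 member for DMF against LPS at 24 h, Gpr84, and no longer Acod1 (adjusted p = 0.0714), and 2 for the difference of the DMF effect between times. With no filter and in the fit of all 36 libraries Ffar2 was called as well, giving 4 members for LPS against either vehicle at 24 h, 2 for DMF against MMF at 24 h and 3 for the time change with DMF, and, with no filter, 3 for DMF against LPS at 24 h. The fit of all 36 libraries called Ffar2 but not Acod1 for DMF against LPS at 24 h (adjusted p = 0.146 for Acod1). Acod1 was also not called for the difference of the DMF effect between times with no filter (adjusted p = 0.0504, Ffar2 being called instead) or by DESeq2 (adjusted p = 0.0524). The causes were not tested.

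Leaving out 1 library gave 1 to 3 members for DMF against LPS at 4 h and 1 to 2 at 24 h, 1 to 3 for CBD against LPS at 24 h, 1 to 2 for DMF against MMF at 4 h and 0 to 2 at 24 h, 1 to 2 for the time changes with LPS, MMF and CBD, 2 to 3 for those with DMSO and EtOH, 2 to 3 for the difference of the DMF effect between times and 0 to 2 for that of CBD. The counts with CBD include Ffar2, except without a CBD library at 24 h, where it was not tested. The counts of the other comparisons were the same without any library.

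Same-numbered libraries correlated at over 0.1 in only 2 of 3 pairs for MMF against LPS and DMF against MMF at 4 h. The same held for the time changes with DMSO, EtOH, DMF and CBD. These comparisons missed the limit and were not taken to pair, which does not show that pairing is absent. There the block called Acod1 (adjusted p = 0.00796) and Gpr84 (adjusted p = 0.00694) for DMF against MMF at 4 h, and Acod1 for the time changes with DMSO (adjusted p = 0.006) and CBD (adjusted p = 0.000967). Beyond these and the calls given in the report, the block changed no call of a member. No paired analysis was run for LPS against the vehicles because those groups share no replicate numbers.

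Over all genes, the block called 179 genes against 14 for MMF against LPS at 4 h and 206 against 0 at 24 h (DESeq2 52 and 17), 4 against 1 for CBD against LPS at 4 h (DESeq2 3), 1740 against 949 for DMF against MMF at 4 h and 4639 against 2508 at 24 h, 4566 against 2926 for DMF against LPS at 24 h, 876 against 0 for DMSO against EtOH at 4 h (DESeq2 89) and 20 against 1 at 24 h (DESeq2 3), and 2 against 0 for the difference of the MMF effect between times. Oxgr1, Sucnr1 and, outside LPS with CBD at 24 h, Ffar2 are limited by depth.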
